A study of Arabidopsis thaliana with 6 samples.

Results

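The genes described here are the cytokinin receptors AHK2, AHK3 and AHK4 (also called WOL) and the type-B response regulators ARR1, ARR2, ARR10, ARR11, ARR12, ARR14 and ARR18 of Arabidopsis thaliana, chosen by gene ID. Of these 10 genes, 8 were in the count table of 18734 genes, which are all 3 receptors and 5 of the 7 regulators. ARR14 and ARR18 were not analysed here. Messenger RNA was taken from the last 0.5 cm of the primary root, at 5 days after planting. In the line ore15-2 a T-DNA interrupts ORE15, which encodes a PLATZ transcription factor, and the wild type it was set against is Col, of the same Columbia background. Both genotypes grew on MS medium in continuous light, and there were 3 libraries of ore15-2 and 3 of Col. An auxin (IAA) or cytokinin (BA) treatment is described in the labels but tied to no library. The labels count 2 seedlings per genotype and name no separate cultures, so the spread behind the p-values may be technical. A single insertion allele stands for loss of ORE15.

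Cytokinin is read by a phosphorelay. The receptors are membrane histidine kinases that bind the hormone and pass a phosphate group to AHP proteins, which carry it to type-B response regulators in the nucleus. These are DNA-binding activators, and among their targets are the type-A response regulators, which dampen the pathway. In the root tip the pathway is known for promoting the exit of cells from the meristem, chiefly through AHK3, ARR1 and ARR12, and for patterning the vascular cylinder, in which AHK4 acts.

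Total counts were 6396903 to 16503138 in ore15-2 and 17433440 to 20333352 in Col. Levels are given as CPM, which are counts scaled to a common library size after TMM adjustment and not to gene length. Replicates 1 and 2 of ore15-2 stood apart, with 2.91% and 3.20% of counts from mitochondrial genes, against 0.328% in ore15-2 replicate 3 and 0.183% to 0.250% in Col, so the members' levels are also given by library. ORE15 itself (AT1G31040, paired with that name from background knowledge) was low in all libraries, with 0 to 1 counts in ore15-2 and 8 to 13 in Col. In CPM it was at 0, 0 and 0.0572 in ore15-2 replicates 1, 2 and 3, against 0.674, 0.545 and 0.382 in Col replicates 1, 2 and 3. ORE15 was not among the genes tested, and ore15-2 replicates 1 and 2 had the fewest total counts. The labels name the cells as root meristem stem cells. Markers of the meristem were present in all 6 libraries, and so were those of older tissue. The 6 root hair markers summed to 454 to 774 CPM in ore15-2 and 280 to 317 CPM in Col. Of these, 5 rose, against 6.47% of all genes tested. RSL4, among the 5, lies 0.168 Mb from AHK3, in a raised stretch of chromosome 1 described below. The 6 meristem markers summed to 89.2 to 132 CPM in ore15-2 and 101 to 114 CPM in Col, and 0 passed the edgeR threshold, with 1 at an unadjusted p under 0.05.

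Comparing ore15-2 with Col asks which components of cytokinin perception and response differ in transcript level in the mutant root tip. The receptors split 3 ways. AHK3 rose to 1.88-fold of Col, AHK2 fell to 0.664-fold, and AHK4 was at 1.05-fold without passing the test. Among the type-B regulators 0 of 5 passed over the 6 libraries by edgeR or by DESeq2. Only 1, ARR10, was at an unadjusted p under 0.05, at rank 2641 by edgeR p among all genes tested. Over all 18726 genes tested 9.9% were called, with 6.47% higher and 3.43% lower in ore15-2, which is the background to the 2 calls among 8 members. The CPM values of the genotypes did not overlap for 4 of the 8 members, AHK2, AHK3, ARR1 and ARR10, against 34.5% of all genes tested, 18.2% with ore15-2 higher and 16.3% with ore15-2 lower.

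**Figure D1:**
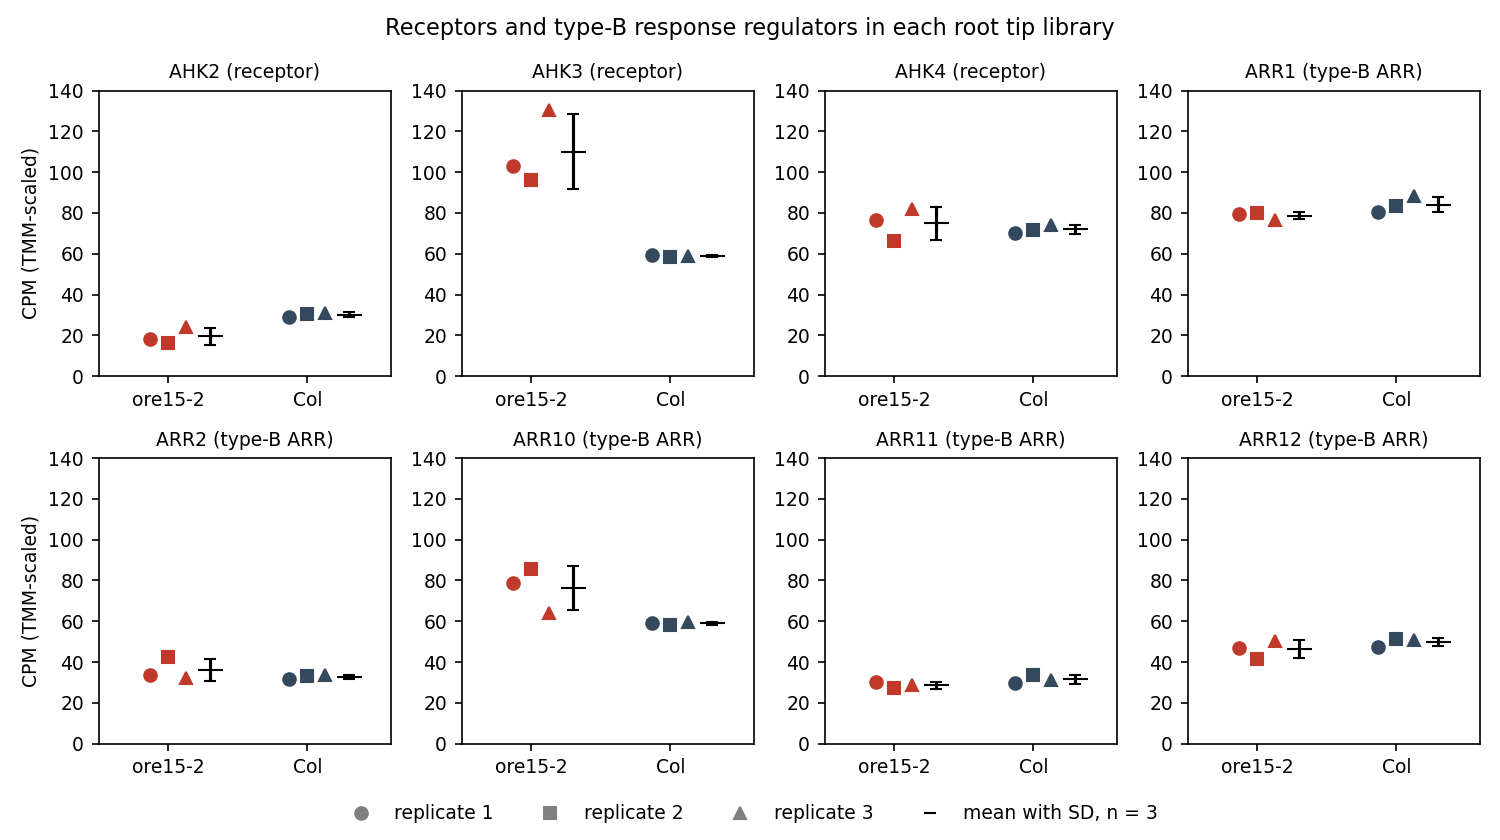
Expression of the 3 receptors and 5 type-B response regulators in CPM (vertical axis, linear from 0), with 1 symbol per library, ore15-2 left of Col, and the mean with SD of 3 libraries beside them. AHK3 lay between 96.2 and 131 CPM in ore15-2, above all Col libraries, and AHK2 between 16.1 and 24.2 CPM, below all of them.

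AHK3 (AT1G27320, TAIR10.1 chromosome 1, 9486889 to 9492632, plus strand, 11 exons) is a receptor known for limiting root meristem size and for delaying leaf senescence. It had 103, 96.2 and 131 CPM in ore15-2 replicates 1, 2 and 3, against 59.2, 58.4 and 58.8 CPM in Col replicates 1, 2 and 3. Every ore15-2 library was above every Col library, and ore15-2 replicate 3 was the highest. The log2 fold change was 0.91 (SE 0.12, 95% interval 0.63 to 1.19, edgeR adjusted p = 0.00225). The call held with each single library left out, at edgeR adjusted p = 0.000107 to 0.0278.

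The genes around AHK3 rose with it. Of the 40 nearest tested genes, 20 on either side over 180 kb, 34 rose and 0 fell, and their median log2 fold change was 0.93, against 0.91 for AHK3. In ore15-2 replicates 1, 2 and 3 the neighbours' median change was 0.95, 0.94 and 0.92 on the log2 scale, and that of AHK3 was 0.81, 0.71 and 1.15. AHK3 was thus below its neighbours' median in ore15-2 replicates 1 and 2 and above it in replicate 3. It lies 1.58 Mb from ORE15 on the same chromosome. The part of this neighbourhood in the rise of AHK3 was not tested, and loss of ORE15 and the raised stretch cannot be told apart here, since all 3 ore15-2 libraries carry both. Around the other 7 members 0 to 3 of 40 neighbours rose, 0 to 3 fell, and the medians were between -0.09 and 0.07.

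**Figure D2:**
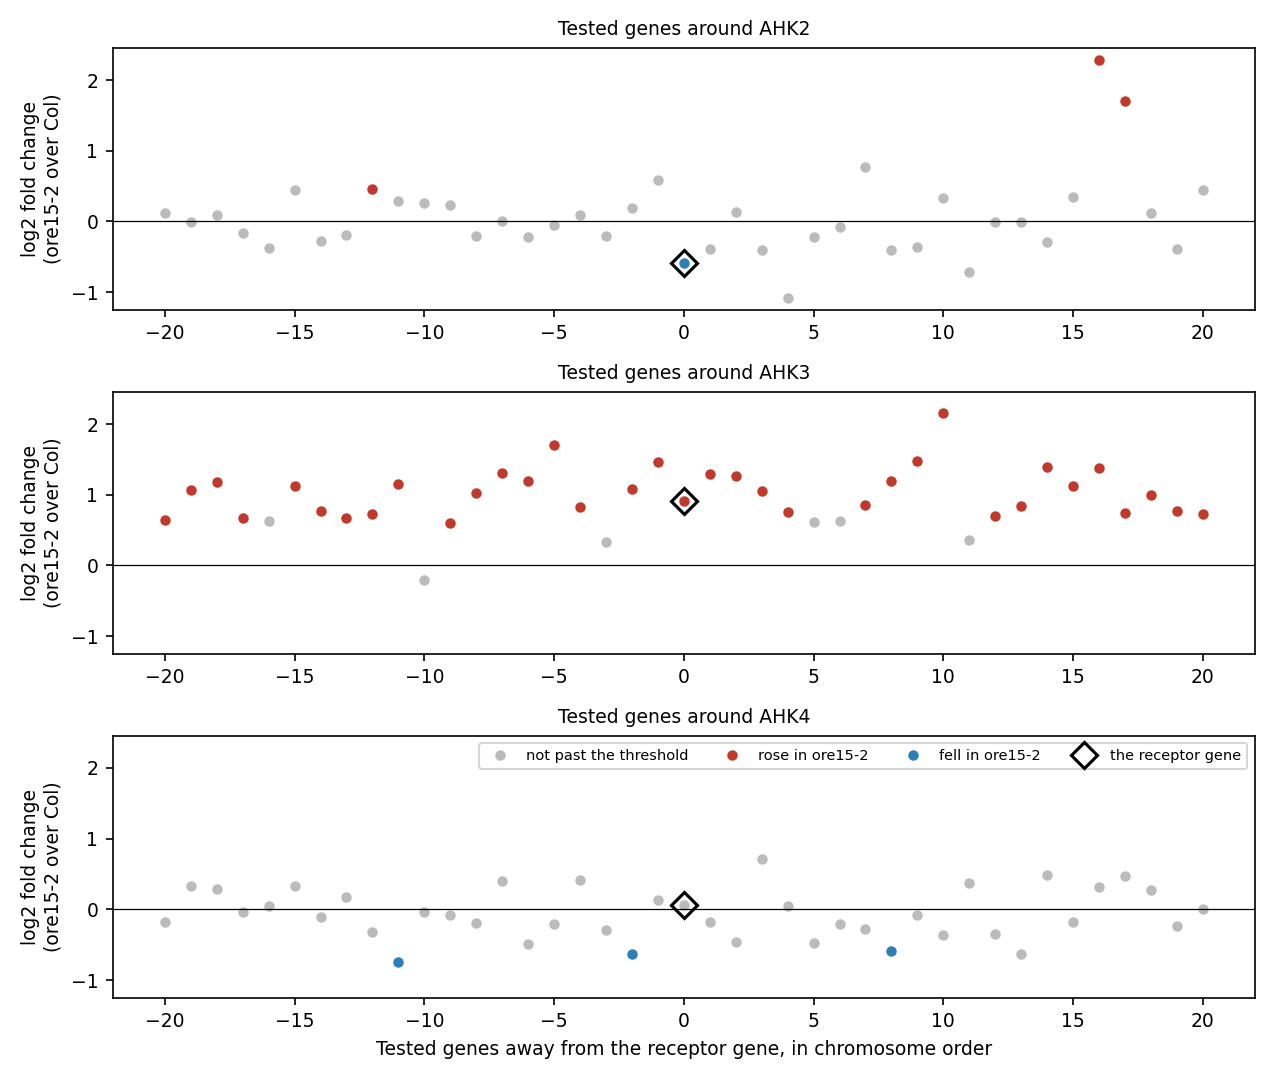
Log2 fold change of ore15-2 over Col (vertical axis) for the 20 tested genes on either side of each receptor gene, in chromosome order (horizontal axis), with the receptor gene at 0 as a diamond. Around AHK3 34 of 40 genes rose, around AHK2 3 of 40 and around AHK4 0 of 40.

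AHK2 (AT5G35750, chromosome 5, 13911283 to 13916805, minus strand, 13 exons), which acts with AHK3 in shoot and root growth, had 18.4, 16.1 and 24.2 CPM in ore15-2 replicates 1, 2 and 3, against 28.9, 30.7 and 30.9 CPM in Col replicates 1, 2 and 3. All ore15-2 libraries were below all Col libraries, and replicate 3 lay nearest to Col. The log2 fold change was -0.59 (SE 0.15, 95% interval -0.92 to -0.26, edgeR adjusted p = 0.0355). Leaving out ore15-2 replicate 1 ended the call (edgeR adjusted p = 0.14, with 4.88% of all genes called), as did leaving out Col replicate 1, 2 or 3 (edgeR adjusted p = 0.106, 0.139 and 0.116, with 3.98%, 3.39% and 4.38% of all genes called). From ore15-2 replicate 3 alone against Col the log2 fold change was -0.31 (edgeR adjusted p = 0.0585, with 16.6% of all genes called), in a fit where the lone library is assumed to vary like Col. The call held without ore15-2 replicate 2, at -0.47 (edgeR adjusted p = 0.036, with 11.3% of all genes called), and without ore15-2 replicate 3, at -0.83 (edgeR adjusted p = 0.000419, with 35.3% of all genes called).

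The 40 neighbours of AHK2 had a median log2 fold change of -0.01. The 5 markers of vascular precursor cells had log2 fold changes of -0.46 to -0.21, and none was at 0 in any library. They summed to 159, 127 and 164 CPM in ore15-2 replicates 1, 2 and 3, against 190, 197 and 189 CPM in Col replicates 1, 2 and 3, and 1 of them, ATHB15, fell. The 3 phloem markers summed to 27.0 to 43.4 CPM in ore15-2 and 54.6 to 70.5 CPM in Col, and 2 of them fell. The 4 xylem markers summed to 163 to 194 CPM in ore15-2 and 199 to 209 CPM in Col. Of these 4, 0 passed the edgeR threshold, with 1 at an unadjusted p under 0.05. Over all genes tested 3.43% fell. The part of these cell types in the lower AHK2 was not tested, nor was that of the mitochondrial share. In these bulk samples fewer cells of a type and less RNA per cell cannot be told apart.

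AHK4 (AT2G01830, chromosome 2, 362983 to 369707, minus strand, 6 annotated mRNAs), the receptor of the vascular cylinder, had 76.7, 66.2 and 82.1 CPM in ore15-2 replicates 1, 2 and 3, against 70.1, 71.6 and 74.1 CPM in Col replicates 1, 2 and 3. The ore15-2 libraries lay on both sides of the Col range. The log2 fold change was 0.07 (SE 0.10, 95% interval -0.17 to 0.30, edgeR adjusted p = 0.709), and it was -0.035 without ore15-2 replicate 3.

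Since the receptors share a function but went apart in level, the 250 bases before each annotated start are shown, with the core motif bound by type-B regulators, AGATT on either strand (AATCT on the strand shown), in capitals. The sequences are from RefSeq, build TAIR10.1, read 5′ to 3′ on the gene's strand, from chr5:13916806-13917055 (minus strand) for AHK2, chr1:9486639-9486888 (plus strand) for AHK3 and chr2:369708-369957 (minus strand) for AHK4.
AHK2: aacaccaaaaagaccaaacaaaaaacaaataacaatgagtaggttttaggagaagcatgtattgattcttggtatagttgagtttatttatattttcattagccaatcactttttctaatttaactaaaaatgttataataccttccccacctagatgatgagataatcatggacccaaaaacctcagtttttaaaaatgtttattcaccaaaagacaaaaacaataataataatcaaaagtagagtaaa
AHK3: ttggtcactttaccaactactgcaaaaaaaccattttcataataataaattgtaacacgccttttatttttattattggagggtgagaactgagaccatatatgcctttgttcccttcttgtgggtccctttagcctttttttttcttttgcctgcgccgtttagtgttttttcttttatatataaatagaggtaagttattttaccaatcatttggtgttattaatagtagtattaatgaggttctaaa
AHK4: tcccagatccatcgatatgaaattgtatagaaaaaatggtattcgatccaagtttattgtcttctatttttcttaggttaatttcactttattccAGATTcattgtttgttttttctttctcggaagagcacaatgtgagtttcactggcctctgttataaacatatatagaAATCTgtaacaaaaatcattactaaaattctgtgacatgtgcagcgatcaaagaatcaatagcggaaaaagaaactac
The windows of AHK2 and AHK3 held 0 copies and that of AHK4 held 2, which begin 155 and 78 bases before the start. ARR2, ARR11 and ARR12 had 1 copy each and ARR1 and ARR10 had 0. Among 27443 protein-coding genes 63.7% had at least 1 copy in a window of the same length, against 4 of the 8 members. A match is a string of letters and not a shown binding site, and its part in the receptor levels was not tested.

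The make-up of the receptor transcripts was compared per length, as each gene's share of the summed RPKM of the 3 receptors. RPKM are reads per kilobase, scaled to library size, and a share does not depend on how libraries are scaled. The lengths implied by the deposited values were 3531, 3111 and 3174 bp for AHK2, AHK3 and AHK4, shorter than their genomic spans. How these lengths were set is not known here. AHK3 made up 53.0%, 54.9% and 56.2% in ore15-2 replicates 1, 2 and 3, against 38.6%, 37.5% and 37.1% in Col replicates 1, 2 and 3. AHK2 made up 8.34%, 8.09% and 9.17% in ore15-2, against 16.6%, 17.4% and 17.2% in Col. AHK4 made up 38.6%, 37.0% and 34.6% in ore15-2, against 44.8%, 45.1% and 45.8% in Col. The genotypes did not overlap in these shares. Since the shares of a library sum to 100%, the lower AHK4 share is no separate difference from the higher AHK3 share, and the CPM values of AHK4 itself overlapped. AHK4 was the most abundant receptor per length in each Col library and AHK3 in each ore15-2 library. The ratio of AHK3 to AHK2 RPKM was 6.43 ± 0.33 in ore15-2 and 2.21 ± 0.0938 in Col (SD, n = 3 each). It ran from 6.13 to 6.78 in ore15-2, so the library that stood nearest to Col in AHK2 had nearly the same ratio as the others.

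**Figure D3:**
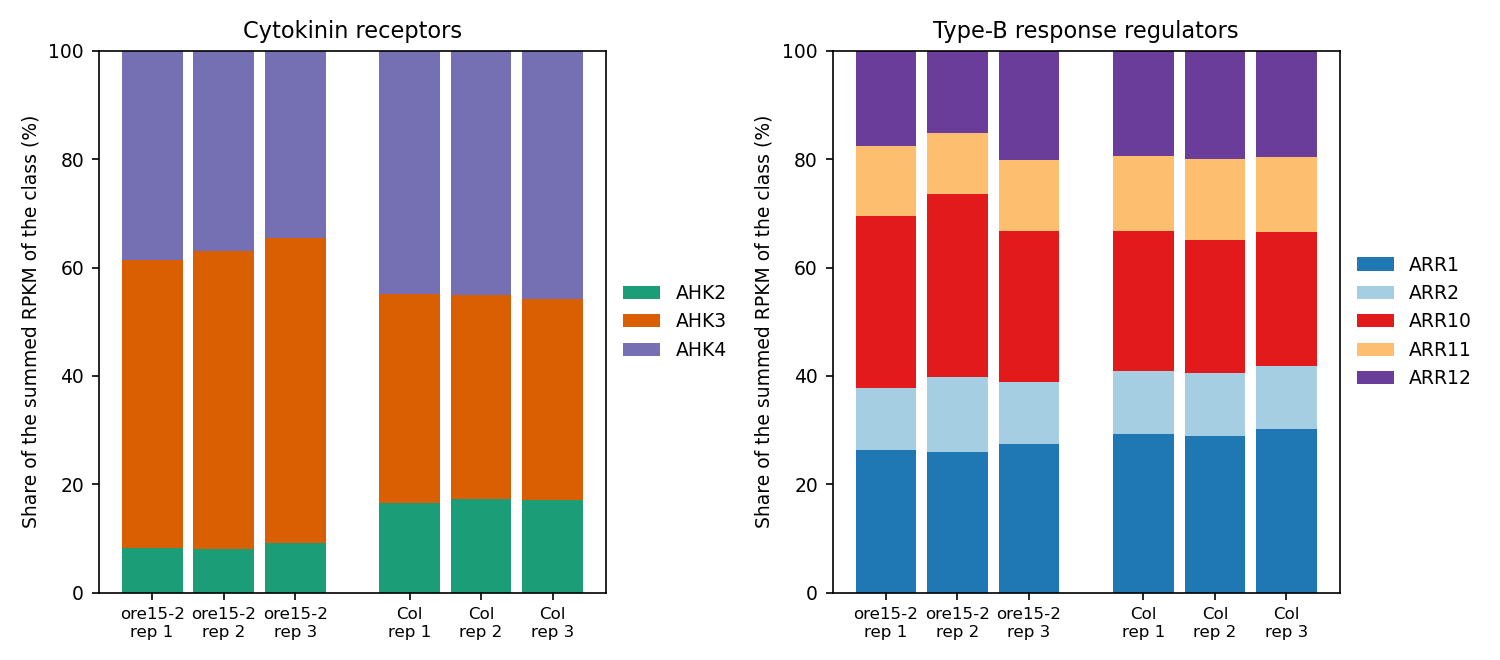
Share of each gene in the summed RPKM of its class (vertical axis, percent from 0 to 100) in each library, ore15-2 left of Col, for the receptors (left panel) and the 5 type-B response regulators (right panel). The AHK3 share was 53.0% to 56.2% in ore15-2 and 37.1% to 38.6% in Col, and the ARR10 share was 27.8% to 33.8% in ore15-2 and 24.5% to 26.0% in Col.

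The summed receptor RPKM as deposited came to 59.7, 46.0 and 79.8 for ore15-2 replicates 1, 2 and 3, against 54.9, 54.5 and 55.7 for Col replicates 1, 2 and 3, and the genotypes overlapped. Rescaled by the TMM library sizes it was 62.6, 56.3 and 74.7 in ore15-2 and 49.3 to 51.0 in Col, without overlap. The deposited RPKM values correct for library size alone. On their scale the median of all genes tested was -0.21 (log2, ore15-2 over Col), and with limma on log2(RPKM + 1) 410 genes rose and 563 fell, against 1211 and 643 by edgeR. There, with the scale shifted by -0.21, AHK3 was at 0.64 (limma adjusted p = 0.107) and AHK2 at -0.75 (limma adjusted p = 0.08), and 0 of 8 members passed, with 3 at an unadjusted p under 0.05, AHK2, AHK3 and ARR1. By edgeR the 3 members at that level were AHK2, AHK3 and ARR10. That level is common in these data, since ARR10 stood only at rank 2641 by edgeR p among 18726 genes tested. The count of 3 is thus a description.

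ARR10 (AT4G31920, chromosome 4, 15444053 to 15447042, minus strand), one of the regulators with the broadest part in cytokinin responses, had 78.8, 85.7 and 64.2 CPM in ore15-2 replicates 1, 2 and 3, against 58.9, 58.3 and 59.6 CPM in Col replicates 1, 2 and 3. All ore15-2 libraries were above all Col libraries, replicate 3 by the smallest margin. The log2 fold change was 0.36 (SE 0.12, 95% interval 0.10 to 0.63), and the adjusted value missed the threshold (edgeR adjusted p = 0.085). Without ore15-2 replicate 3 it was 0.45 and passed (edgeR adjusted p = 0.00265), in a fit that called 35.3% of all genes.

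ARR1 (AT3G16857, chromosome 3, 5755714 to 5759443, plus strand), which acts at the border of meristem and elongation zone, had 79.5, 79.7 and 76.7 CPM in ore15-2, against 80.6, 83.4 and 88.1 CPM in Col. The ore15-2 values lay just below those of Col, and the log2 fold change of -0.10 (SE 0.09, 95% interval -0.30 to 0.11) did not pass. ARR1 overlaps AT3G16860 on the other strand by 69 bp. Per length, ARR10 was above ARR1 in each of the 3 ore15-2 libraries, at 45.4, 42.1 and 41.3 RPKM against 37.8, 32.3 and 40.7 RPKM. In Col ARR10 was below ARR1 in each library, at 39.5, 38.3 and 39.2 RPKM against 44.7, 45.2 and 47.9 RPKM. In ore15-2 replicate 3 the gap was narrow.

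ARR12 (AT2G25180, chromosome 2, 10724301 to 10727272, minus strand), the partner of ARR1 in the root, had 47.0, 41.6 and 50.3 CPM in ore15-2, against 47.4, 51.2 and 51.0 CPM in Col, with a log2 fold change of -0.10 (SE 0.10, 95% interval -0.33 to 0.13). ARR11 (AT1G67710, chromosome 1, 25376679 to 25379217, minus strand) had 30.4, 27.0 and 28.7 CPM in ore15-2, against 29.6, 33.6 and 31.2 CPM in Col, with a log2 fold change of -0.13 (SE 0.10, 95% interval -0.36 to 0.10). ARR2 (AT4G16110, chromosome 4, 9112686 to 9116164, plus strand), known as a partner of AHK3 in leaf longevity, had 33.8, 42.3 and 32.0 CPM in ore15-2, against 31.5, 33.0 and 33.6 CPM in Col, with a log2 fold change of 0.13 (SE 0.12, 95% interval -0.14 to 0.40). The genotypes overlapped in all of these, and ore15-2 replicate 2 held the extreme value of each. These intervals allow a change of up to 1.32-fold upward for ARR2 and down to 0.778-fold for ARR11. The summed type-B RPKM, rescaled by TMM, came to 150, 153 and 139 for ore15-2 replicates 1, 2 and 3, against 137, 143 and 145 for Col replicates 1, 2 and 3, with overlap.

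In the order of levels per length in Col, as deposited, ARR1 came first at 45.9 ± 1.71 RPKM (SD, n = 3), followed by ARR10 at 39.0 ± 0.635, ARR12 at 30.6 ± 0.962, AHK4 at 24.9 ± 0.527, ARR11 at 22.1 ± 1.18, AHK3 at 20.8 ± 0.368, ARR2 at 18.0 ± 0.403 and AHK2 at 9.39 ± 0.235. Of these neighbours only ARR11 and AHK3 overlapped between libraries. In ore15-2 the order by mean was ARR10, ARR1, AHK3, ARR12, AHK4, ARR11, ARR2 and AHK2, from 42.9 ± 2.14 to 5.34 ± 1.82 RPKM (SD, n = 3). On the deposited scale all neighbours from ARR1 to ARR2 overlapped there, and AHK2 stood below the rest. Rescaled by TMM, the order by mean was the same, but AHK3 no longer overlapped ARR12, nor AHK4 ARR11, while ARR10 overlapped ARR1. Within each ore15-2 library AHK3 was above ARR12, at 31.7, 25.2 and 44.9 RPKM against 25.1, 18.9 and 30.0 RPKM as deposited.

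Genes for proteins that remove type-B regulators fell together. The KMD proteins are F-box proteins that mark type-B ARRs for breakdown, and they also target enzymes of phenylpropanoid synthesis. All 4 KMD genes fell, against 3.43% of all genes tested, in a list chosen with earlier results of these data known. Their median log2 fold change was -0.90, against -0.00049 over all genes tested. By library the median was -0.90, -0.83 and -0.94 in ore15-2 replicates 1, 2 and 3, and the part of the mitochondrial share in this fall was not tested.

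KMD1 (AT1G80440, chromosome 1, 30241452 to 30243176) had 18.1, 15.3 and 14.2 CPM in ore15-2 replicates 1, 2 and 3, against 49.6, 67.7 and 61.8 CPM in Col replicates 1, 2 and 3 (log2 fold change -1.93, SE 0.15, edgeR adjusted p = 0.000283). KMD4 (AT3G59940, chromosome 3, 22142856 to 22144439) had 40.5, 42.5 and 36.4 CPM in ore15-2, against 69.9, 83.4 and 82.3 CPM in Col (log2 fold change -0.99, SE 0.11). KMD2 (AT1G15670, chromosome 1, 5389952 to 5391672) had 65.7, 69.6 and 69.9 CPM in ore15-2, against 110, 123 and 125 CPM in Col replicates 1, 2 and 3 (log2 fold change -0.81, SE 0.10). In these 3 genes and in KMD3 no ore15-2 library reached the Col range. Over all genes tested, 16.3% likewise had every ore15-2 library below every Col library. KMD3 (AT2G44130, chromosome 2, 18253610 to 18255054) had 47.2, 49.9 and 46.7 CPM in ore15-2, against 60.6, 73.5 and 70.6 CPM in Col (log2 fold change -0.51, SE 0.10, edgeR adjusted p = 0.0156).

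KMD1, KMD2 and KMD4 passed in all 18 alternatives. KMD3 passed in 15 and was lost without ore15-2 replicate 1 (edgeR adjusted p = 0.0733), without Col replicate 2 (0.084) and without Col replicate 3 (0.0646). Those fits called 4.88%, 3.39% and 4.38% of all genes, against 9.9% with all 6 libraries. KMD3 lies over its whole 1445 bp within AT2G44140 on the minus strand, and KMD4 overlaps AT3G59950 and a noncoding gene by 160 and 1389 bp, so their reads may not be separated if strand was not used in counting.

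**Figure D4:**
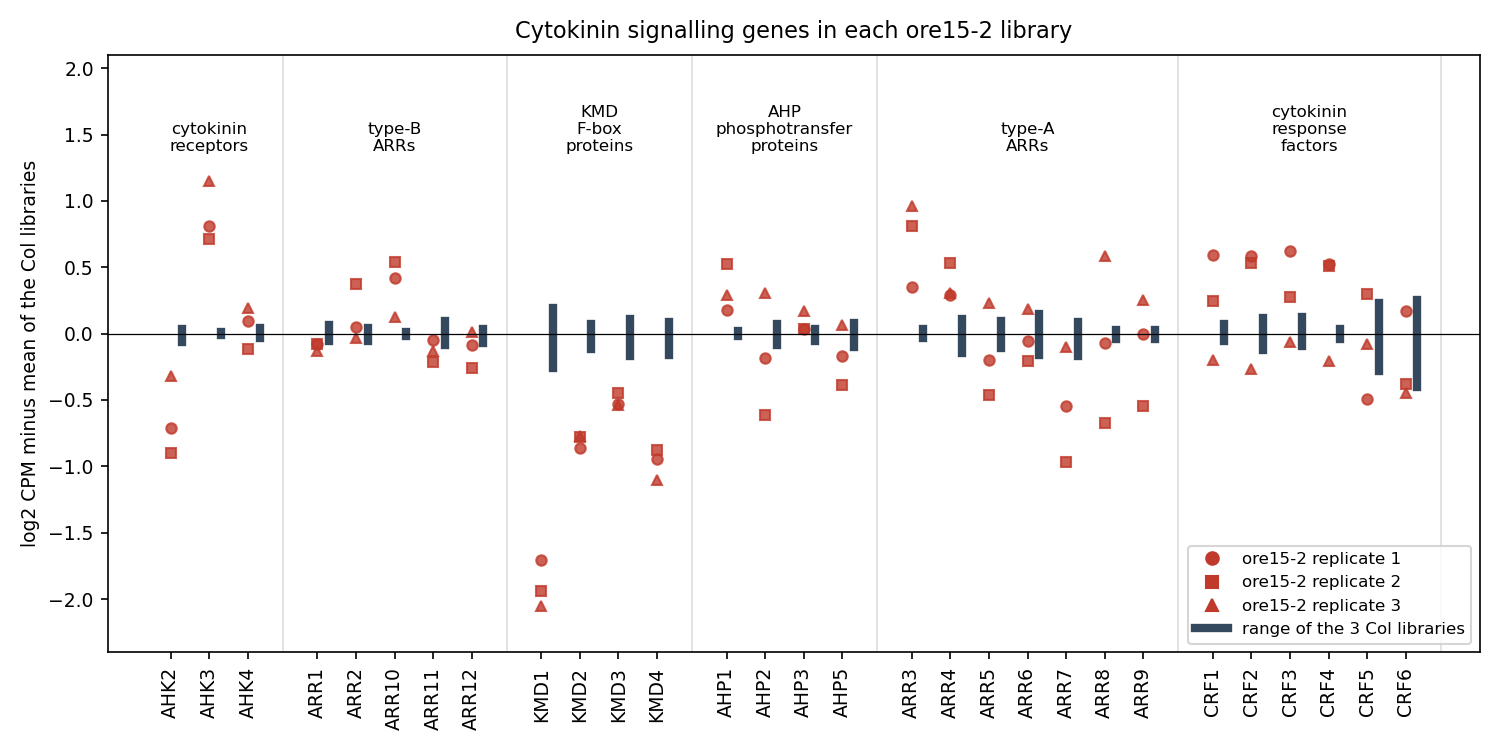
Change of each measured gene of 6 groups of the cytokinin pathway in each ore15-2 library (symbols), as log2 CPM less the mean of the Col libraries (vertical axis), with the range of the 3 Col libraries as a bar. All 4 KMD genes lay below the Col range in all 3 ore15-2 libraries, against 16.3% of all genes tested. The AHP, type-A and response factor genes scattered on both sides of 0.

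Elsewhere in the pathway 1 of 20 tested genes passed. With the KMD genes this makes 1 rise and 4 falls among 24 tested genes of 35 listed, or 20.8%, against 9.9% of all genes. All 4 falls were KMD genes, and the lists were chosen with earlier results of these data known. The 20.8% therefore does not show an excess across the pathway. The 11 others of these 35, among them all 5 further type-B ARRs, were not analysed here. Without ore15-2 replicate 3 the number past the threshold was 15 of 24, in the fit that called 35.3% of all genes. Without Col replicate 2 or 3 the number was 3, in fits that called 3.39% and 4.38% of all genes. DESeq2 called 7 of the 24, 2 higher and 5 lower, against 13.5% of all genes, and the further genes were the type-A gene ARR4 and AHK1. The gene that rose in the main fit was ARR3, a type-A regulator, and the 7 type-A genes had a median of -0.01. Without ore15-2 replicate 3 that median was -0.27, with 2 rises and 2 falls in the fit that called 35.3% of all genes. From ore15-2 replicate 3 alone it was 0.27. ARR3 had 32.1, 44.1 and 49.0 CPM in ore15-2 replicates 1, 2 and 3, against 25.1, 25.7 and 24.5 CPM in Col replicates 1, 2 and 3. Every ore15-2 library was above every Col library (log2 fold change 0.74, SE 0.15, edgeR adjusted p = 0.0136). Leaving out Col replicate 1, 2 or 3 gave edgeR adjusted p = 0.0801, 0.082 and 0.0787. Those fits called 3.98%, 3.39% and 4.38% of all genes.

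Of 4 AHP genes, which carry the phosphate between receptor and regulator, 0 passed by edgeR or DESeq2, with 1 at an unadjusted p under 0.05 by edgeR, and the median was -0.0018. Without ore15-2 replicate 3 their median was -0.15, with 1 rise and 1 fall in the fit that called 35.3% of all genes. From ore15-2 replicate 3 alone their median was 0.24. AHP1 had 96.1, 123 and 104 CPM in ore15-2, against 84.2, 84.8 and 86.5 CPM in Col, with a log2 fold change of 0.34 (SE 0.11, edgeR adjusted p = 0.0914), and AHP3, which overlaps AT5G39350 by 17 bp, of 0.08 (SE 0.09). Of 6 cytokinin response factors, which act beside the type-B regulators, 0 passed by edgeR, with 0 at an unadjusted p under 0.05 and 0 by DESeq2, and the median was 0.22. That median rested on the libraries used. Without ore15-2 replicate 3 it was 0.44, with 3 of 6 higher past the threshold, in the fit that called 35.3% of all genes. It was 0.077 without replicate 1, 0.14 without replicate 2 and -0.20 from replicate 3 alone. CRF3 had 37.3, 29.4 and 23.2 CPM in ore15-2, against 22.8, 23.6 and 26.5 CPM in Col, at 0.28 (SE 0.17). CRF4 had 35.9, 35.4 and 21.6 CPM in ore15-2, against 24.1 to 25.5 CPM in Col, at 0.29 (SE 0.18). In both, ore15-2 replicate 1 was the highest library and ore15-2 replicate 3 did not lie above Col.

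Among histidine kinases that do not bind cytokinin, AHK1, known for osmotic responses, averaged 17.5 ± 7.15 CPM in ore15-2 and 31.5 ± 1.36 CPM in Col (SD, n = 3 each), at -0.78 (SE 0.23, edgeR adjusted p = 0.0649). Its change in ore15-2 replicates 1, 2 and 3 was -0.90, -1.54 and -0.33 on the log2 scale. AHK1 passed in 4 of 18 alternatives, which were DESeq2 (-0.82, DESeq2 adjusted p = 0.0168), the replicate block (-0.87, edgeR adjusted p = 0.0354), without ore15-2 replicate 2 (-0.54, edgeR adjusted p = 0.0392) and without ore15-2 replicate 3 (-1.20, edgeR adjusted p = 0.000232). From ore15-2 replicate 3 alone it was -0.32. AHK5, which overlaps AT5G10730 by 73 bp, was at -0.09 (SE 0.15), with changes of -0.21, -0.30 and 0.15 in ore15-2 replicates 1, 2 and 3. SHY2, an auxin signalling repressor that ARR1 and ARR12 activate in the root, was at -0.35 (SE 0.16, edgeR adjusted p = 0.185), with 16.8, 16.5 and 23.6 CPM in ore15-2 and 22.4, 25.1 and 26.7 CPM in Col. SHY2 overlaps AT1G04230 by 640 bp.

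The genes most like each changed receptor were found by Pearson's r of log2 CPM over the 6 libraries, among 7136 other genes with a symbol that averaged 5 CPM or more. For AHK2 these were RBP-DR1, PUM4 and FBH4, with r of 0.999 or higher, and 303 genes had r above 0.95. RBP-DR1 had 33.3, 29.4 and 43.0 CPM in ore15-2 and 51.1, 53.8 and 53.1 CPM in Col. For AHK3 they were CM1, RSL4 and VOZ1, with r of 0.997, 0.996 and 0.992, and 97 genes had r above 0.95. RSL4 and VOZ1 lie 0.168 and 0.542 Mb from AHK3. With 2 genotypes, any gene with a clear step between them can reach a high r, so these values are a description.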

How the data were processed

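Messenger RNA from root tips was sequenced in 6 libraries, 3 of ore15-2 and 3 of Col. Per the submitters' processing notes, reads went through FastQC, cutadapt, TopHat2 and HTSeq on TAIR10. The library kit was a stranded TruSeq kit for poly(A) RNA, per the labels' protocols. How counting handled strand, and from which annotation, is not given in the sources used here. The authors deposited read counts per gene (18734 genes) and RPKM values (18340 genes). For each of the 18340 genes in both tables, RPKM equalled the counts divided by 1 length per gene and by the summed counts of those genes, within a relative tolerance of 0.0001. They are therefore no separate measurement, and they carry no correction for library composition.

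The quasi-likelihood F-test of edgeR 4.0.16 (R 4.3.3) compared the genotypes on these counts, after TMM scaling and filterByExpr, with no further covariate. Benjamini-Hochberg adjustment ran over all 18726 genes that passed the filter, and calls are at an adjusted p under 0.05. The SE is the absolute log2 fold change over the square root of F. Intervals are 95% intervals from that SE and the fit's degrees of freedom. A library's own change is its log2 CPM (prior count 2) minus the average over Col. By chi-square, every pair of libraries of a genotype was further apart than sampling noise.

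Positions come from the TAIR10.1 reference; the deposited tables hold no coordinates. Upstream sequence is the 250 bases before a gene's annotated start in that reference. The members and all lists were chosen with earlier results of these data known. All 8 measured members are named. From the other lists the genes past the threshold are named, or else the 2 with the smallest p, and for each member past the threshold the 3 genes most like it. Genes named outside this rule were chosen after their values were seen.

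Alternatives were RLE and upper-quartile scaling, no filter and a filter of 1 CPM in 3 libraries, DESeq2 1.42.0, limma-voom (limma 3.58.1), a replicate block, each library left out in turn, ore15-2 replicates 1 and 2 left out together, organelle genes left out, genes within 1.5 Mb of AHK3 left out, and limma on log2(RPKM + 1) or log2(RPKM + 0.1) restricted to genes that averaged 1 RPKM or more, where fold changes of low genes are understated. The code was tested on simulated counts.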

Additional observations from a re-analysis of the deposited data

How the results depend on the processing

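The AHK3 rise kept its direction in all 18 alternatives and its call in 16, and the AHK2 fall kept its direction in all 18 and its call in 11. With each library left out, AHK2 ranged from -0.83 to -0.47 (log2), AHK3 from 0.73 to 1.00, AHK4 from -0.035 (without ore15-2 replicate 3) to 0.15 and ARR10 from 0.27 to 0.45. The members past the threshold ranged from 1 to 3, the pathway genes from 3 to 15 and all genes from 634 to 6612, against 2, 5 and 1854. From ore15-2 replicate 3 alone against Col the counts were 1 member and 3109 genes, with AHK2 at -0.31, ARR2 at -0.019 and ARR12 at 0.021. On RPKM with pseudocounts of 1 and 0.1 the counts were 0 members in both and 973 and 790 genes. There AHK2 was at -0.75 and -0.86, AHK3 at 0.64 and 0.67, AHK4 at -0.16 and -0.17 and ARR2 at -0.089 and -0.094, beside a median of all genes of -0.21 and -0.23. The neighbours' median around AHK3 was 1.07 with 10 genes on either side and 1.02 with 50, against 0.93. DESeq2 called 2520 genes and the same 2 members. Same-numbered libraries did not deviate together (correlations 0.06, 0.08 and -0.20, against -0.28 to 0.24 for unlike numbers). With 3 libraries per genotype these values cannot decide whether same-numbered libraries were handled together. A replicate block gave 1642 calls and the same 2 members, with AHK2 at -0.63 (edgeR adjusted p = 0.0306) and AHK3 at 0.90. The cause of these shifts was not tested. ARR1 and ARR11 kept their direction and stayed short of the threshold in all 18. Intervals cover the spread between libraries, and the lowest member count was 81, for AHK2 in ore15-2 replicate 2.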

Other observations

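Several genes of the pathway outside the rule for naming, chosen after their values were seen, divided ore15-2 by library rather than from Col. CRF2, a cytokinin response factor, had 32.6, 31.4 and 18.0 CPM in ore15-2 replicates 1, 2 and 3, against 19.9, 21.7 and 23.6 CPM in Col replicates 1, 2 and 3. The type-A regulator ARR8 had 83.5, 55.1 and 132 CPM in ore15-2, against 88.3, 85.6 and 89.7 CPM in Col, and AHP2 had 36.2, 26.8 and 50.9 CPM in ore15-2, against 43.2, 38.7 and 41.7 CPM in Col. In each of these 3 genes ore15-2 replicate 3 lay on the other side of the Col mean from replicates 1 and 2. ARR8 overlaps a noncoding gene by 299 bp.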
